A study of Arabidopsis thaliana with 12 samples.

Results

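The probes described here are those with the highest deposited intensity in Arabidopsis thaliana plants, wild type and of ecotype Columbia 0, at 4 weeks or at 2 weeks of age. A probe was taken if its mean intensity over the 6 samples of an age ranked in the top 100 at either age, and probes of 8 named genes were left out by rule. This left 146 of the 3439 probes on the array. Of these, 53 were in the top 100 at 4 weeks only, 48 at 2 weeks only and 45 at both ages. The members were thus selected on the mean intensities of both ages, so every difference between the ages given for them is a description and carries no test.

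Total RNA was measured in 6 samples of 4-week-old plants and 6 samples of 2-week-old plants, all of the same genotype and with no treatment named. The labels give no organ and do not say how many plants stand behind a sample, and no probe list for an organ was used to check one. Where the 6 samples of an age are not separate plants, the spread between them is partly technical.

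The list was proposed as the most abundant transcripts. Intensity on an array also depends on how each probe binds, so the ranks order probes by brightness, and whether they order transcripts by abundance was not tested. In a green plant the most abundant nuclear messages usually encode chloroplast proteins that capture light and fix carbon, and messages for proteins that regulate, transport or modify others are usually far rarer. Of the 8 genes left out by rule, 4 were assigned to photosynthesis by keyword. Among the probes left out, 7 ranked in the top 100 of either age, so the members do not show how bright such genes were.

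A gene name could be given to few of the members. By the array's annotation, 22 members had 1 gene, 24 had several genes and 100 were not listed, against 692, 870 and 1877 of all probes. Members not listed made up 68.5% of the members and 54.6% of the array. The share was 81.3% for the members of 2 weeks only, 60.4% for those of 4 weeks only and 64.4% for those of both ages. The 7 probes that the rule took out of the top 100 each had a single gene. Before this step 53 probes were of 2 weeks only, 47 of both ages and 53 of 4 weeks only. The rule thus raised the share not listed among all members, at 2 weeks only and at both ages, but not at 4 weeks only. The 22 named genes are therefore the part of the list that can be read as biology, and the other members are known by probe number.

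On the deposited scale, which runs from 0 to 100 in every sample, 10 probes reached 100 to within 0.01 in at least 1 sample. All 10 were members of both ages and none of them had a single gene. Values at 100 are taken as the top of the scale and their order is unknown. The number of arrays limits the precision of every value below.

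The boundary of the list was narrow. At 4 weeks, the probes at ranks 98, 99 and 100 averaged 3.42, 3.35 and 3.32, and the next 3 probes, just outside, averaged 3.28, 3.28 and 3.23. At 2 weeks the same ranks averaged 3.53, 3.45 and 3.41 inside the list, and the next 3 probes 3.35, 3.32 and 3.29. AT1G73120 was the gene just outside at 4 weeks, at 3.28 ± 0.241 (SD, n = 6), and it was in the top 100 of 1 of the 6 samples.

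**Figure D1:**
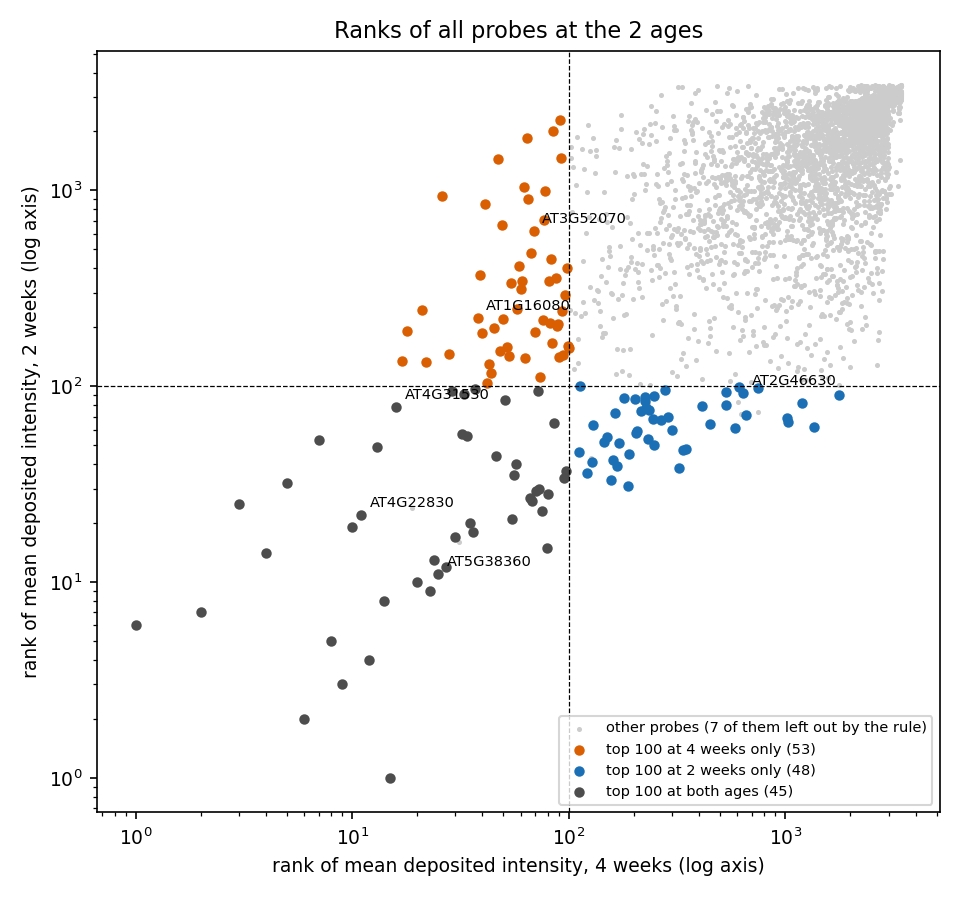
Rank of the mean deposited intensity at 4 weeks (horizontal, log axis) against the rank at 2 weeks (vertical, log axis) for all 3439 probes; dashed lines mark rank 100, and coloured points are the 146 members by class. The 45 members of both ages fill the lower left corner, while members of a single age reach down to rank 2294 at 2 weeks and rank 1772 at 4 weeks.

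The ages shared fewer than 50 of their 100 brightest probes in any pair of single samples. Between a 4-week and a 2-week sample, 41 to 49 of the 100 brightest probes were the same over the 36 pairs. Between samples of the same age the number was 85 to 98 at 4 weeks and 88 to 97 at 2 weeks. In all 12 samples, 37 probes were in the top 100. Of the 53 members of 4 weeks only, 38 were in the top 100 of each of the 6 samples of that age and 50 were in that of no 2-week sample. Of the 48 members of 2 weeks only, 39 were in the top 100 of each 2-week sample and 45 in that of no 4-week sample.

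Members of a single age lay at very different depths of the ranking at the other age. The members of 4 weeks only had a median rank of 63 at 4 weeks and 243 at 2 weeks, and 20 of them were among the next 100 ranks at 2 weeks. The members of 2 weeks only had a median rank of 240.5 at 4 weeks and 66.5 at 2 weeks, and 15 of them were among the next 100 ranks at 4 weeks. Beyond rank 1000 at the other age lay 6 members of 4 weeks only and 5 of 2 weeks only.

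The value at rank 100 was alike at the ages, but the top of the distribution and its middle were not. The probe at rank 100 of a sample stood at 3.33 ± 0.182 at 4 weeks and 3.30 ± 0.131 at 2 weeks (SD, n = 6). The probe at rank 10 stood at 36.9 ± 4.27 at 4 weeks and 60.7 ± 4.49 at 2 weeks. The array median was 0.412 ± 0.0240 at 4 weeks and 0.108 ± 0.00931 at 2 weeks. A difference between the ages thus depends on where on the scale the arrays are brought together, and differences below are given after quantile normalization, which gives every array the same distribution of values. They are 4 weeks minus 2 weeks on the log2 scale, with the standard error (SE) of the limma fit across all tested probes.

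Of all signal on an array, summed over its probes, the 146 members held 46.9% ± 1.19 at 4 weeks and 70.4% ± 0.670 at 2 weeks (SD, n = 6). Members of both ages held 33.4% ± 1.25 at 4 weeks and 56.1% ± 1.19 at 2 weeks. Members of 4 weeks only held 11.04% ± 0.105 at 4 weeks and 2.19% ± 0.266 at 2 weeks. Members of 2 weeks only held 2.41% ± 0.0630 at 4 weeks and 12.1% ± 1.22 at 2 weeks. The 22 named members together held 5.65% ± 0.249 at 4 weeks and 6.84% ± 0.404 at 2 weeks.

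**Figure D2:**
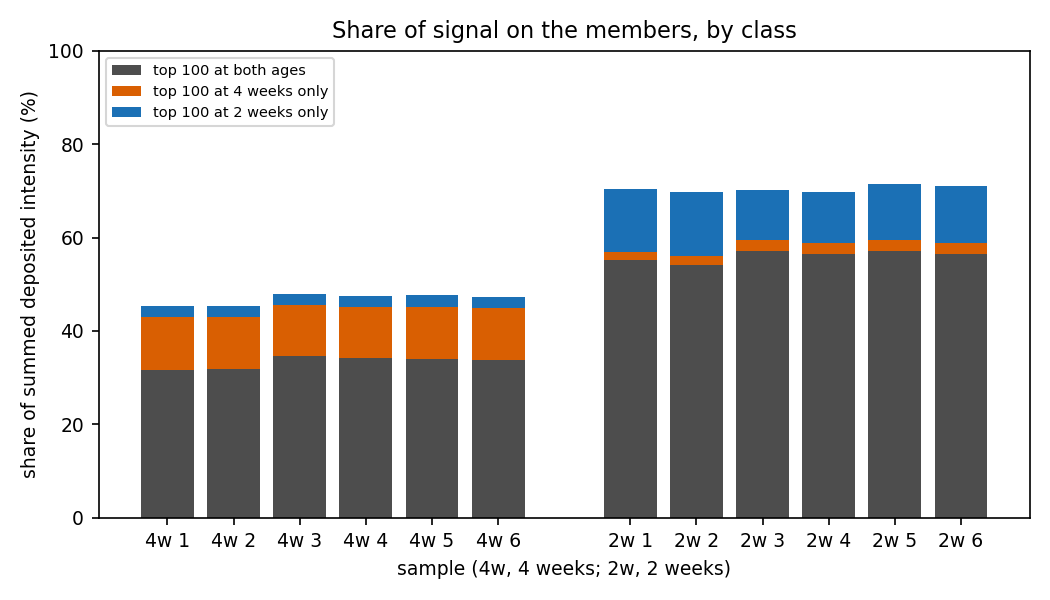
Share of the summed deposited intensity (percent, vertical) held by the members in each of the 12 samples (horizontal, 4-week samples on the left), stacked by class. The members hold between 45.3% and 48.0% in the 4-week samples and between 69.8% and 71.4% in the 2-week samples.

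Among the 8 named members of 4 weeks only, AT1G16080 had the highest mean at that age, at rank 38 at 4 weeks and rank 223 at 2 weeks. Its deposited intensity ran from 9.21 to 11.96 with a median of 10.9 at 4 weeks, and from 0.913 to 1.58 with a median of 1.42 at 2 weeks. The ages did not overlap, and the difference was 3.02 (SE 0.13), or 8.11-fold higher at 4 weeks.

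AT1G76450, which encodes a protein of the PsbP family of the thylakoid lumen, was the named member of 4 weeks only whose family is tied to photosynthesis. The PsbP family is named for a subunit of the oxygen-evolving part of photosystem II. Its intensity ran from 3.02 to 4.37 with a median of 4.01 at 4 weeks, and from 0.401 to 0.996 with a median of 0.702 at 2 weeks. Every 4-week sample lay above every 2-week sample, and the difference was 1.93 (SE 0.15). AT1G76450 ranked 87 at 4 weeks and was in the top 100 of 5 of the 6 samples, and at 2 weeks it ranked 356.

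AT1G01080 encodes a protein with RNA recognition motifs, a domain that binds RNA. Its intensity ran from 4.65 to 8.49 with a median of 5.14 at 4 weeks, and from 1.62 to 2.32 with a median of 2.15 at 2 weeks. The ages did not overlap, and the high end at 4 weeks came from samples 5 and 6, at 8.22 and 8.49. The difference was 1.68 (SE 0.16), but -0.17 when each array was centred on its median.

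AT4G19900, a gene of a glycosyltransferase family, had a median of 4.57 at 4 weeks (4.18 to 5.51) and 0.798 at 2 weeks (0.558 to 0.992). The 6 samples of each age lay close together and well apart from the other age, with a difference of 2.36 (SE 0.12). AT3G52070 had a median of 4.58 at 4 weeks (3.75 to 5.18) and 0.431 at 2 weeks (0.228 to 0.507). It was at rank 69 at 4 weeks and at rank 621 at 2 weeks, the farthest down of the 8, with a difference of 2.95 (SE 0.16), or 7.73-fold.

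AT5G38310 had a median of 4.37 at 4 weeks (3.96 to 6.07) and 0.849 at 2 weeks (0.555 to 1.27), a difference of 2.204 (SE 0.17). It lies close on its chromosome to AT5G38360, a member of both ages, with 8 genes of the TAIR10.1 reference between them. The pair differed in opposite directions between the ages, AT5G38310 being higher and AT5G38360 lower at 4 weeks.

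AT2G36480 was the named member of 4 weeks only with the widest spread at 2 weeks. Its intensity ran from 5.61 to 7.26 with a median of 6.21 at 4 weeks, and from 0.398 to 3.17 with a median of 2.24 at 2 weeks. The 2-week samples 1 and 2 were the low ones, at 0.398 and 0.431, and samples 3 to 6 lay between 2.19 and 3.17. The difference was 2.11 (SE 0.39) with all samples and 1.504 (SE 0.18) without samples 1 and 2 of both ages. AT2G46220 had a median of 4.08 at 4 weeks (3.42 to 6.34) and 2.06 at 2 weeks (1.62 to 2.64). The ages did not overlap, and its difference of 1.13 (SE 0.26) was the smallest of the 8, with -0.58 under median centring.

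Among the 6 named members of 2 weeks only, RAP74 (AT4G12610) is the best known. It encodes the large subunit of TFIIF, a general transcription factor that works with RNA polymerase II at promoters. Its intensity ran from 1.49 to 1.96 with a median of 1.80 at 4 weeks, and from 3.90 to 6.74 with a median of 5.11 at 2 weeks. The ages did not overlap, and the difference was -1.70 (SE 0.14). RAP74 ranked 236 at 4 weeks and 76 at 2 weeks, and it was in the top 100 of each 2-week sample and of no 4-week sample.

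PRA1.B6 (AT5G07110) encodes a prenylated Rab acceptor, a small membrane protein of a family that binds Rab GTPases of the secretory pathway. It ran from 1.62 to 2.08 with a median of 1.73 at 4 weeks, and from 3.58 to 5.23 with a median of 4.11 at 2 weeks. The difference was -1.41 (SE 0.11), with no overlap. PRA1.B3, another gene of this family on the array and no member, was also lower at 4 weeks, by a log2 difference of -3.43 (SE 0.66, adjusted p = 0.000603 in limma). The 4-week sample 4 of PRA1.B3 was set to the low-value floor, and without it the difference was -2.77 (SE 0.28, adjusted p = 5.68e-06 in limma). With samples 1 and 2, 3 and 4, and 5 and 6 each averaged, the adjusted p of PRA1.B3 in limma was 0.01255.

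AT3G06570, a gene of the kelch repeat family, had the highest 2-week mean of the 6, with a median of 2.18 at 4 weeks (1.96 to 2.997) and 8.38 at 2 weeks (7.76 to 9.38). It ranked between 119 and 181 in single 4-week samples and between 49 and 56 in single 2-week samples. Its difference was -1.73 (SE 0.12).

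AT1G32730 and AT2G46630 lay farthest down the list at 4 weeks, at ranks 531 and 640. AT1G32730 had a median of 1.04 at 4 weeks (0.918 to 1.25) and 4.17 at 2 weeks (3.97 to 6.04), a difference of -2.49 (SE 0.15). AT2G46630 had a median of 0.996 at 4 weeks (0.765 to 1.06) and 4.01 at 2 weeks (3.26 to 4.33), a difference of -2.52 (SE 0.14). In both genes all 4-week samples lay below all 2-week samples. AT5G11010 had a median of 1.78 at 4 weeks (1.55 to 2.15) and 4.97 at 2 weeks (4.21 to 5.70), with a difference of -1.62 (SE 0.12) and no overlap.

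**Figure D3:**
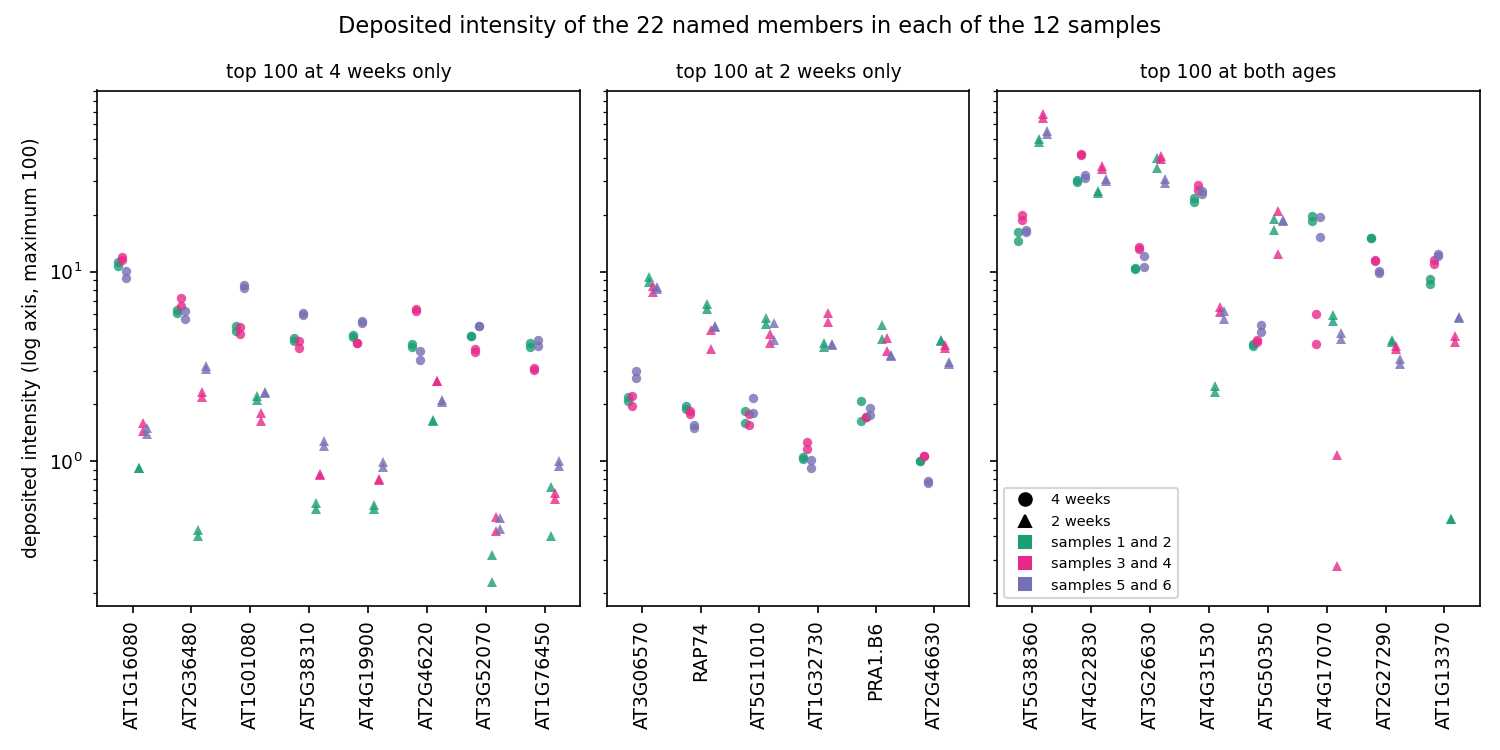
Deposited intensity (vertical, log axis) of the 22 named members in each of the 12 samples, by class; circles are 4-week samples, triangles 2-week samples, and colours join samples 1 and 2, 3 and 4, and 5 and 6. Samples of the same colour nearly coincide for most genes, and the 2-week values of AT1G13370 and AT2G36480 are low in samples 1 and 2, those of AT4G17070 in samples 3 and 4.

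The 8 named members of both ages fell into those lower and those higher at 4 weeks. AT5G38360, AT3G26630 and AT5G50350 were lower. AT5G38360 encodes a protein of the alpha/beta hydrolase fold, a large class of enzymes that cleave esters and other bonds. It ran from 14.5 to 19.99 with a median of 16.4 at 4 weeks, and from 48.3 to 68.1 with a median of 54.5 at 2 weeks. The ages lay far apart on the deposited scale, and the difference after normalization was -1.15 (SE 0.11), or 2.23-fold lower at 4 weeks.

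AT3G26630 encodes a pentatricopeptide repeat protein, a member of the large plant family that binds and processes RNA in chloroplasts and mitochondria. It had a median of 11.3 at 4 weeks (10.3 to 13.5) and 37.2 at 2 weeks (29.5 to 40.9), at ranks 35 and 20. Its difference was -1.12 (SE 0.11), with no overlap. Most genes of this family are known to be weakly expressed, and what else the probe of AT3G26630 may bind was not tested. AT5G50350 had a median of 4.30 at 4 weeks (4.04 to 5.24) and 18.6 at 2 weeks (12.4 to 20.9), with a difference of -1.61 (SE 0.15).

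AT4G22830, similar to the Ycf49 protein of algal plastids and cyanobacteria, was bright at both ages. Its intensity ran from 29.9 to 41.9 with a median of 31.8 at 4 weeks, and from 26.2 to 36.1 with a median of 30.5 at 2 weeks. The ages overlapped on the deposited scale, and AT4G22830 was highest in samples 3 and 4 at both. It ranked between 8 and 14 in single 4-week samples and between 20 and 23 in single 2-week samples. After normalization it was higher at 4 weeks by 0.83 (SE 0.12), on the deposited scale by 0.16, and under median centring it stood at -1.54.

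AT4G31530, a gene for a protein with the NAD(P)-binding Rossmann fold common to many reductases, had the largest difference of the 8. It ran from 23.2 to 28.9 with a median of 26.1 at 4 weeks, and from 2.31 to 6.48 with a median of 5.88 at 2 weeks. The 2-week samples 1 and 2 were again the low ones, at 2.31 and 2.48, and the gene was in the top 100 of the other 4 samples of that age. The difference was 2.97 (SE 0.25), and 2.67 (SE 0.12) without samples 1 and 2 of both ages.

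AT1G13370 encodes a histone H3, a core protein of the nucleosome. Its intensity ran from 8.62 to 12.4 with a median of 11.3 at 4 weeks, and from 0.4915 to 5.74 with a median of 4.42 at 2 weeks. The 2-week samples 1 and 2 stood at 0.4924 and 0.4915 and ranked 488 and 492, whereas samples 3 to 6 lay between 4.27 and 5.74 and ranked between 69 and 85. At 4 weeks samples 1 and 2 were also the lowest, at 9.15 and 8.62. The difference was 2.25 (SE 0.50) with all samples and 1.53 (SE 0.13) without samples 1 and 2 of both ages. Plants carry several near-identical H3 genes, and whether this probe tells them apart was not tested.

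AT4G17070 had a different low pair. It ran from 4.15 to 19.7 with a median of 16.9 at 4 weeks, and from 0.279 to 5.92 with a median of 4.57 at 2 weeks. Samples 3 and 4 stood at 5.99 and 4.15 at 4 weeks and at 1.07 and 0.279 at 2 weeks, below the other 4 samples of their age in each case. On the deposited scale the ages overlapped because of the 4-week sample 4. In the normalized values they did not overlap, but the gap was narrow, with a lowest 4-week value of 5.15 and a highest 2-week value of 5.01. The difference of 2.52 had an SE of 0.63, or 0.84 with samples 1 and 2, 3 and 4, and 5 and 6 each averaged. Without samples 3 and 4 of both ages it was 2.32 (SE 0.15).

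AT2G27290 had a median of 11.4 at 4 weeks (9.88 to 15.1) and 3.98 at 2 weeks (3.25 to 4.36), a difference of 1.88 (SE 0.12). On the deposited scale it was highest in samples 1 and 2 and lowest in samples 5 and 6 at both ages. Under median centring its difference was -0.06, so its direction depends on the scaling.

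The unnamed members reached larger differences than the named ones. Probe 3776, of 4 weeks only, ran from 14.9 to 18.2 with a median of 16.6 at 4 weeks and from 0.217 to 0.340 with a median of 0.242 at 2 weeks. It ranked 26 at 4 weeks and 937 at 2 weeks, and its difference of 5.36 (SE 0.14) was the largest of the 146. Probe 4604 was at rank 91 at 4 weeks and rank 2294 at 2 weeks, with a difference of 4.45 (SE 0.14).

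In the opposite direction, probe 2923 ran from 0.462 to 0.690 with a median of 0.516 at 4 weeks and from 4.81 to 8.16 with a median of 7.57 at 2 weeks. Its difference was -4.11 (SE 0.17). Probe 1775 was at rank 1772 at 4 weeks and rank 90 at 2 weeks, with a difference of -3.91 (SE 0.17). The brightest member of 4 weeks only was probe 2768, with a median of 23.6 at 4 weeks and 1.99 at 2 weeks. The brightest of 2 weeks only was probe 1419, with a median of 1.83 at 4 weeks and 15.3 at 2 weeks.

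Of the 10 probes that reached the top of the scale, probes 1431 and 1803 reached it at both ages and the others at a single age. Probe 1431 stood at 100 in all 6 samples at 4 weeks and in 4 of 6 at 2 weeks, where its lowest value was 61.3. Probe 1803 stood at 100 in all 6 samples at 4 weeks and in 3 at 2 weeks, where its 2-week samples 1 and 2 averaged 21.1. Probe 3656 stood at 100 in all 6 samples at 4 weeks and between 22.7 and 25.8 at 2 weeks. Probe 811 ran from 40.3 to 65.7 at 4 weeks and stood at 100 in all 6 samples at 2 weeks. For these probes a difference between the ages is limited by the top of the scale.

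All 146 members were tested in the fit across the array, since each lay above the low-value floor on at least 6 of the 12 arrays. Of the 53 members of 4 weeks only, limma called 53 higher at 4 weeks at an adjusted p below 0.05, where it called 33.6% of all 2961 tested probes higher. Of the 48 members of 2 weeks only it called 47 lower, where it called 31.1% of all tested lower. The rule used this contrast, so these counts say nothing beyond it. Of the 45 members of both ages, 15 were called higher, 25 lower and 5 not called. With each array centred on its median, 31 members of 4 weeks only were called higher and 7 lower, and 3 members of both ages were called higher and 36 lower. Under that centring 978 of all 2965 tested probes were called higher and 922 lower. Over the whole array the calls split into 994 higher and 920 lower after quantile normalization, and into 2245 higher and 327 lower in the deposited values.

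On the deposited scale, the 6 values of each age did not overlap for 50 members of 4 weeks only, which were higher at 4 weeks, and for 47 of 2 weeks only, which were lower. Over all probes 56.5% were higher and 7.76% lower at 4 weeks without overlap. Among the members of both ages 9 were higher and 25 lower without overlap, and 11 overlapped. The median difference was 2.42 for the members of 4 weeks only, -2.25 for those of 2 weeks only and -0.81 for those of both ages, beside 0.10 over all tested probes. Under median centring these medians were 0.87, -3.74 and -3.03, beside 0.14 over all tested probes.

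**Figure D4:**
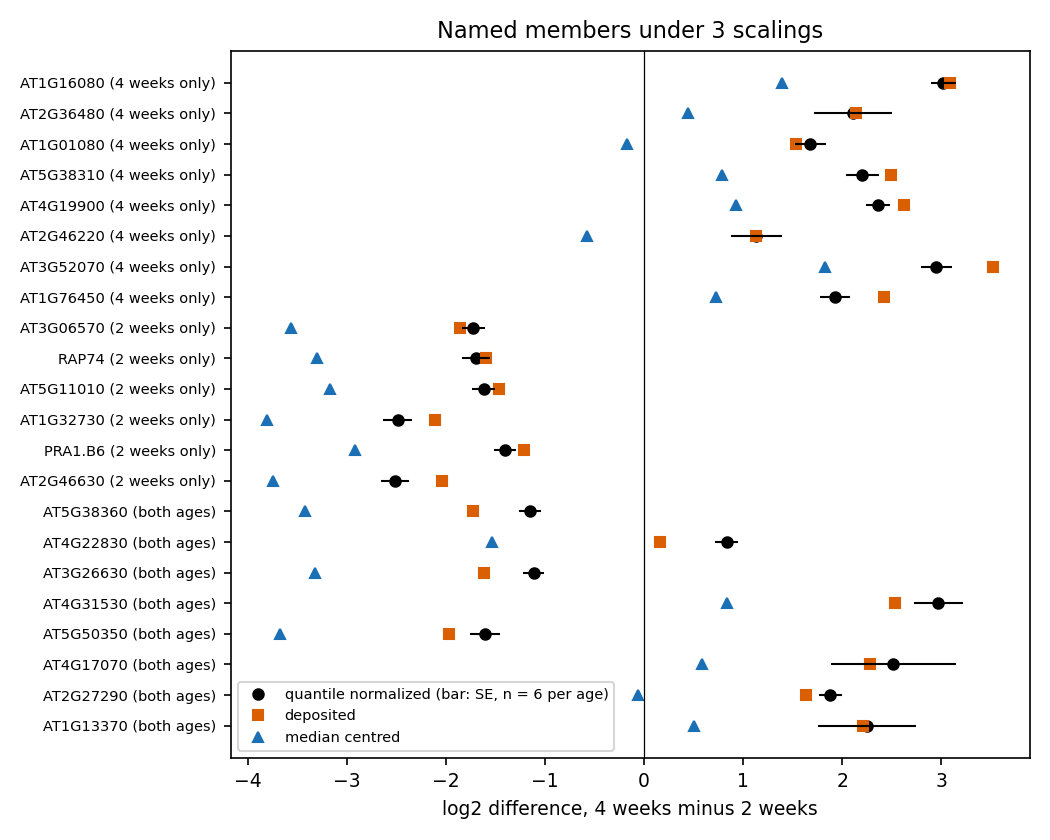
Log2 difference, 4 weeks minus 2 weeks (horizontal), of the 22 named members (vertical, by class) after quantile normalization (circles, with the SE of the fit), in the deposited values (squares) and after median centring (triangles). The circles and squares lie on the same side of 0 for all 22 genes, and the triangles lie to the left of both, on the other side of 0 for AT1G01080, AT2G46220, AT4G22830 and AT2G27290.

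The spread between samples was not used to choose the members. The SD of the normalized log2 values over the 6 samples had a median of 0.23 at 4 weeks and 0.21 at 2 weeks for the 146 members, and of 0.31 at 4 weeks and 0.35 at 2 weeks for all tested probes. The next 100 probes after the top 100 of each age had medians of 0.25 at 4 weeks and 0.19 at 2 weeks, close to those of the top 100, which were 0.23 at 4 weeks and 0.21 at 2 weeks. Below rank 1000 the medians were 0.36 at 4 weeks and 0.49 at 2 weeks. The top 100 of each age were thus measured about as evenly as the next 100 probes. The medians of the 146 members include, at each age, members that ranked below the top 100 there. Probes that reached 100 were kept in the medians of the members and of the top 100, and their spread is limited by the top of the scale.

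Samples with adjacent numbers were nearly alike in the members. In the 136 members that did not reach 100, the mean absolute log2 difference within the pairs 1 and 2, 3 and 4, and 5 and 6 had a median of 0.11 at 4 weeks and 0.07 at 2 weeks. Between the means of these pairs it was 0.30 at 4 weeks and 0.28 at 2 weeks. The difference between pairs exceeded that within pairs in 115 of the 136 members at 4 weeks, or 84.6%, and in 120 at 2 weeks, or 88.2%. Over 2808 tested probes that were no members, most of them dimmer, these shares were 69.8% and 58.2%. Probes of like brightness were not compared. What an adjacent pair shares is not given in the labels, and the 6 samples of an age may be fewer independent units. With adjacent numbers averaged, the SE of the 22 named members was 1.33 to 1.72 times that given here.

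The pair that stood low or high was the same at both ages in part of the members. Of the 136 members, 63 had the same lowest pair at both ages, or 46.3%, against 46.1% of the probes that were no members. The same highest pair was seen in 74, or 54.4%, against 47.4%. Among the 22 named members, 8 had the same lowest pair, or 36.4%, and 16 the same highest pair, or 72.7%. Deviations of the pair means from the age mean had a Pearson correlation between 4 and 2 weeks of 0.44 over 408 points of 136 members and 0.59 over the 66 points of the 22 named members, beside 0.35 over the 8424 points of tested probes that were no members. These points share samples and, within a member, sum to 0.

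**Figure D5:**
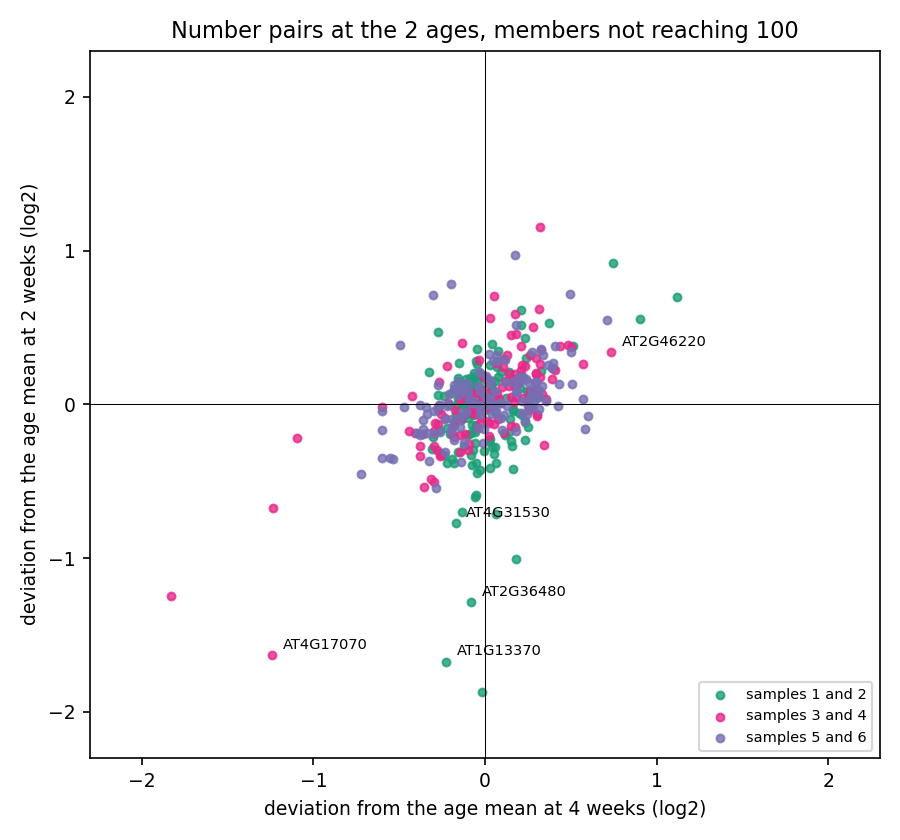
Deviation of each adjacent-number pair from the mean of its age, in normalized log2 intensity, at 4 weeks (horizontal) and at 2 weeks (vertical), for the 136 members that did not reach 100; colours are the 3 pairs, and 3 of the 408 points lie outside the axes. AT4G17070 lies low in samples 3 and 4 at both ages, and AT1G13370 and AT2G36480 lie low in samples 1 and 2 mainly at 2 weeks.

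Members with wide differences between pairs were few. The 3 pair means spanned more than 1 on the log2 scale in 9 of the 136 members at 4 weeks, or 6.62%, and in 12 at 2 weeks, or 8.82%. Among probes that were no members the shares were 21.3% and 28.0%. Most of those probes were dimmer than the members, and the span was not compared with probes of like brightness. The named genes with such a span were AT2G46220 and AT4G17070 at 4 weeks, and AT4G17070, AT4G31530, AT1G13370 and AT2G36480 at 2 weeks. Probe 2085, of both ages, was low in samples 3 and 4 like AT4G17070, with pair means of 1.12 against 5.66 in samples 1 and 2 at 4 weeks and 1.67 against 8.60 at 2 weeks. Probe 2494, of both ages, was low in the 2-week samples 1 and 2 like AT1G13370, at a mean of 1.30 against 14.7 in samples 3 and 4.

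Probe 2885 was the member with the widest spread. It ran from 0.140 to 7.05 at 4 weeks, and at 2 weeks it was listed at 0 in samples 1 to 4, with a highest value of 1.95. Its place at rank 83 at 4 weeks and its difference of 4.84 (SE 1.66) rest on few samples, and the size also rests on the low-value floor, since 4 of the 2-week values were set to it. No other member had a sample at 0.

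Gene functions could be compared for few genes of the array. A search of the names and synonyms in the reference table with 18 keyword groups reached 33 of the 692 single-gene probes and 1 of the 22 named members, PRA1.B6. The chromatin group held 3 tested genes that were no members. Of these AT1G09200, a gene for histone H3.1, was called higher at 4 weeks by 0.89 (SE 0.27, adjusted p = 0.0112 in limma), and chr31, for a chromatin remodelling protein, by 1.13 (SE 0.33, adjusted p = 0.0102 in limma).

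Another H3.1 gene that the search reached, AT5G65360, stood at 1.10 (SE 0.59, adjusted p = 0.121 in limma). Its difference was 0.47 (SE 0.14, adjusted p = 0.0121 in limma) without the 2-week sample 5, which was listed at 0. With adjacent numbers averaged none of the 3 was called, at adjusted p-values in limma of 0.0914 for AT1G09200, 0.0619 for chr31 and 0.0956 for AT5G65360. AT1G09200 ranked 821 at 4 weeks and 1391 at 2 weeks, and its 2-week samples 1 and 2 averaged 0.0801 against 0.188 in samples 3 to 6. The H3 member AT1G13370 was low in the same samples, whereas AT5G65360 averaged 0.0759 in samples 1 and 2 and 0.0625 in samples 3 to 6 at 2 weeks. The cell wall group held 5 tested genes, of which 3 were called lower (CSLA01, GH9B12 and GH9B8) and 0 higher. Of all tested probes 31.1% were called lower. With adjacent numbers averaged, GH9B12 and GH9B8 were no longer called, at adjusted p-values in limma of 0.122 and 0.132. Each of the 3 genes also lost its call in several fits with 1 sample left out, CSLA01 in most of them. CSLA01 was dim, at normalized means of 0.0316 at 4 weeks and 0.102 at 2 weeks. In CSLA01 1 sample of each age was set to the low-value floor, and in GH9B8 2 of the 4-week samples were. In the deposited values CSLA01 and GH9B12 were on the other side, at 0.95 and 1.41, and GH9B8 stood at -0.12 (adjusted p = 0.909 in limma). The keyword group of protein folding held 3 tested genes, of which 0 were called after quantile normalization at an adjusted p below 0.05. They were CCS, also in the redox and stress group, Cpn60beta3 and Cpn60beta4. In the deposited values, where 2245 probes were called higher, so were these 3, at adjusted p-values in limma of 0.00014, 0.00027 and 1.5e-05. Under median centring Cpn60beta4 was called higher by 0.99 (adjusted p = 0.032 in limma) and the other genes were not called.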

How the data were processed

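Per the labels, total RNA was measured on arrays in 12 samples, 6 per age. The deposited table holds 1 linear intensity per probe and sample; the authors' scanning, background correction and scaling are not given in the sources used here. The members, lists and tests were chosen with earlier results of these data known. Members were ranked on mean deposited intensity. All named members had 1 gene in the annotation table and are named by rule; the probe numbers named are the brightest of a class, at 100 or at a boundary, and others were chosen after their values were seen. Of the 692 single-gene probes 690 matched RefSeq (TAIR10.1), used for names and gene order; roles not in it are background knowledge. For differences, arrays were quantile normalized (the medians of the 12 arrays, over positive values, spanned 1.90 in log2), values under the 1st percentile of positive values, 0.0152, were set to it, and probes above it on at least 6 of 12 arrays were fitted with limma 3.58.1 in R 4.3.3, two-sided, with Benjamini-Hochberg adjustment at 0.05. The fit was tested on simulated data with noise drawn independently for each array. That test does not cover the likeness of adjacent numbers or of equal numbers at both ages. Replicate numbers recur at both ages: deviations from the age means correlated at 0.16 to 0.44 between samples of the same number, over 0.1 in each pair, which was taken as pairing. The SEs and calls in the Results come from fits without this pairing, and call counts of a fit with it are given below. No label explains the numbers.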

Additional observations from a re-analysis of the deposited data

How the results depend on the processing

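With 1 sample left out at a time, the members numbered 53 to 55 at 4 weeks only, 48 to 50 at 2 weeks only and 43 to 45 at both ages. Class sizes stayed within 1.5 times under medians in place of means, ranks from normalized or centred values, exclusions made before ranking, adjacent numbers averaged and each pair of adjacent numbers left out, the last added after seeing the data. Across the array 994 were called higher and 920 lower; in the deposited values without normalization 2245 and 327, with a median log2 difference over all probes of 1.82. Under median centring, which left 0.14, 978 were called higher and 922 lower across the array. Members of 4 weeks only then had 31 called higher and 7 lower, and members of both ages 3 called higher. There the differences of AT1G01080, AT2G46220, AT4G22830 and AT2G27290 were -0.17, -0.58, -1.54 and -0.065. With 1 sample left out, calls were 950 to 996 higher and 884 to 917 lower across the array, 52 to 53 higher at 4 weeks only and 47 to 48 lower at 2 weeks only. A sample left out alone keeps its nearly alike adjacent number in the data. The ranges with 1 sample left out therefore cannot show how far the results depend on that likeness. With the replicate block, pairing samples of the same number, calls were 1041 higher and 987 lower across the array, and it moved no count by over 1.5 times. Values at 0 and at 100 have no order, and the signal over background is unknown.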
